A study of Homo sapiens with 6 samples.

Results

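The 10 genes described here belong to the desmosome and the plakin family, and RNA-seq of whole cultures gave their levels in MDA-MB-231 cells. MDA-MB-231 is an established line from a breast carcinoma without hormone receptors, with a mesenchymal look. They were picked by symbol (DSP, JUP, PKP2, PKP3, PKP4, DSC2, DSG2, PPL, EVPL and PLEC) and make up 10 of the 62703 genes in the count tables. Cells with hairpin RNA against RNF20 (shRNF20, 3 libraries) were set against cells with a control hairpin (shControl, 3 libraries), both made in the same line. RNF20 is a ubiquitin ligase that marks histone H2B in transcribed genes, and the series title links it to CDK9, LSD1 and immunosuppression. The labels give neither the number of hairpins nor whether the cells were pools or clones. Nor do they say whether replicates came from separate cultures. The p-values therefore speak for the scatter among these 6 libraries alone, and that scatter could be technical. The choice of the family was made with the fall of DSP and its spread among the control libraries already known. Its differences between the groups are therefore given as a description, without p-values.

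Desmosomes are buttons that hold neighbouring epithelial cells together. In the gap between the cells, desmosomal cadherins (desmogleins and desmocollins) bind each other. Inside the cell their tails hold plakoglobin and plakophilins, which in turn hold desmoplakin, and desmoplakin anchors the intermediate filaments. Desmoplakin belongs to the plakins, large linker proteins that tie intermediate filaments to membranes and other structures. Periplakin and envoplakin are relatives found in the cornified envelope of the skin, and plectin links filaments to hemidesmosomes, focal adhesions and the nucleus.

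Counts assigned to genes totalled 21988826 to 28265573 in shRNF20 libraries and 23786533 to 29685306 in shControl libraries. RNF20 itself stood at 11.1 to 14.1 CPM (counts scaled to a common library size after TMM, a trimmed-mean scaling) in shRNF20 and at 57.8 to 58.5 CPM in shControl. Mitochondrially encoded RNA took 4.91% to 6.22% of gene counts in shRNF20 and 0.93% to 1.38% in shControl. Reads in no annotated exon took 5.05% to 5.49% in shRNF20 and 2.39% to 2.58% in shControl, as shares of the gene counts and unassigned reads together. Of 6 markers of the line, VIM, CD44, AXL, MSN and CAV1 were abundant and SPARC stayed under 1 CPM in every library; 3 were lower in shRNF20 (CD44 -1.23, MSN -0.93 and VIM -0.42 as log2 fold changes) and 0 higher. That list summed to 2993 to 3016 CPM in shRNF20 and 4013 to 4524 CPM in shControl. Of 17 markers of epithelial or luminal cells, 4 were higher and 4 lower among the 10 abundant enough to test, and the list summed to 219 to 224 CPM in shRNF20 and 234 to 314 CPM in shControl. As log2 fold changes, ESR1 (3.76), ELF3 (0.86), EPCAM (0.64) and ESRP2 (0.35) were higher. CLDN7 (-1.91), TP63 (-1.42), CDH1 (-1.38) and CLDN4 (-0.57) were lower. ESR1 was low, at 1.44 CPM in shRNF20 and 0.10 CPM in shControl on average. Over all genes tested 28.7% were higher and 29.8% lower, to be set beside the counts of each marker list. KRT5 had no read in any library, and ESRP1, GRHL2, RAB25, PGR, FOXA1 and KRT14 had at most 11 reads in any of them. Leukocyte markers summed to 3.16 to 4.22 CPM in shRNF20 and 1.83 to 2.57 CPM in shControl, with no read of TYROBP. Of these, CD14 was higher (3.08 CPM in shRNF20 and 1.41 CPM in shControl on average), while PTPRC did not pass (0.32 CPM in shRNF20 and 0.66 CPM in shControl). Fibroblast and endothelial markers summed to 57.7 to 60.0 CPM in shRNF20 and 21 to 29.2 CPM in shControl. The fibroblast genes COL1A1, COL3A1, LUM and PDGFRB were higher in shRNF20, and the endothelial PECAM1 was lower (0.66 CPM in shRNF20 and 5.12 CPM in shControl on average). The part that these differences play in the values below was not tested. In bulk RNA, fewer cells of a kind and less RNA per cell cannot be told apart.

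All 10 genes were abundant enough to test. In the fit over all genes (edgeR's quasi-likelihood test, Benjamini-Hochberg adjustment over 15797 genes, threshold 0.05), DSP, JUP, PPL, PLEC, EVPL and PKP3 were lower in shRNF20, DSC2 and PKP2 were higher, and DSG2 and PKP4 did not pass. Among all genes tested 29.8% were lower and 28.7% higher, so 58.4% passed in all. The genes were chosen with this contrast known, and nothing is read from their count. Their median log2 fold change was -0.47, against -0.01 over all genes tested. In shRNF20 and shControl the libraries did not overlap for the 8 genes that passed; over all genes the groups were separate with shRNF20 lower for 32.8% and with shRNF20 higher for 33.5%. The plakins, plakoglobin and 1 plakophilin thus lay on the lower side, and the cadherins did not.

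**Figure D1:**
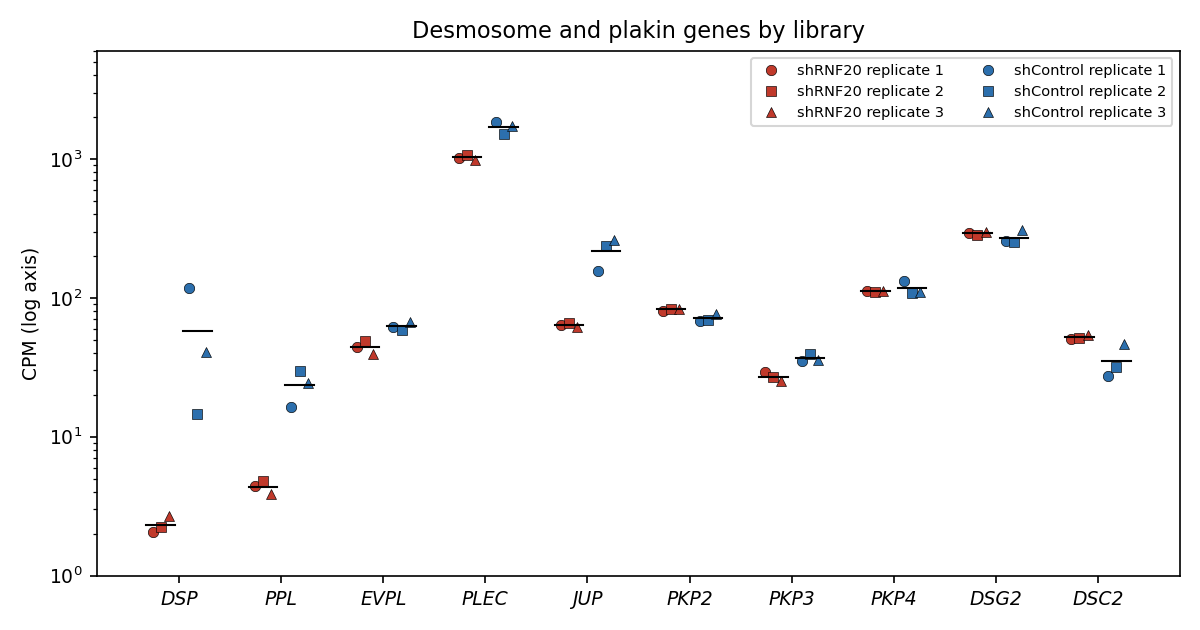
CPM of the 10 genes on a log axis, with 1 point per library (marker shape gives the replicate number) and a line at the group mean; shRNF20 libraries are red and on the left of each pair, shControl libraries are blue. The shControl points of DSP run from 14.5 to 117 CPM, while its shRNF20 points sit between 2.08 and 2.67 CPM.

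DSP encodes desmoplakin, the protein that joins the desmosomal plaque to intermediate filaments (ENSG00000096696, GRCh38 chromosome 6, 7541575 to 7586717, plus strand). It stood at 2.08, 2.22 and 2.67 CPM in shRNF20 replicates 1 to 3 and at 117, 14.5 and 40.9 CPM in shControl replicates 1 to 3. The shRNF20 libraries lay close together and the shControl libraries far apart, with replicate 1 highest and replicate 2 lowest. The reads behind these values numbered 54, 49 and 76 in shRNF20 and 3457, 368 and 961 in shControl, so counting error is small beside the differences between control libraries. The lowest shControl library still held 5.44 times the CPM of the highest shRNF20 library. DSP averaged 2.32 ± 0.31 CPM in shRNF20 and 57.5 ± 53.2 CPM in shControl (SD, n = 3 each), a log2 fold change of -4.62 (SE 0.74) or 24.7-fold lower. Its size rests on which control is used: the log2 fold change was -3.59 without shControl replicate 1, -5.10 without replicate 2 and -4.82 without replicate 3. Treating the pooled reads of the shRNF20 libraries as a single sample gave -4.59, which did not pass.

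Promoter sequences from RefSeq (GRCh38.p14, 250 bases before to 50 after an annotated start) were used for 5 of the 10 genes. PLEC was left out of the search, so its promoter was not examined. The sequences are written 5′ to 3′ on the gene's own strand. They are shown for DSP and JUP, which were both lower in shRNF20, and for DSG2, which was not. Capitals mark CACCTG and its reverse complement CAGGTG, the E-box form that the ZEB and SNAI repressors of epithelial genes are known to bind.
DSP, chr6:7541421-7541720, plus strand: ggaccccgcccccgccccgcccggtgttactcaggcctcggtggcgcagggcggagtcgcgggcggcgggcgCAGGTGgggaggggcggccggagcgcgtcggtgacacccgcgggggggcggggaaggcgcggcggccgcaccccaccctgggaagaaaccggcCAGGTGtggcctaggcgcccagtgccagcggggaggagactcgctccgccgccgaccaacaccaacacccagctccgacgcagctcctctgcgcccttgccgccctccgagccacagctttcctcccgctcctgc
JUP, inner start, chr17:41785927-41786226, minus strand: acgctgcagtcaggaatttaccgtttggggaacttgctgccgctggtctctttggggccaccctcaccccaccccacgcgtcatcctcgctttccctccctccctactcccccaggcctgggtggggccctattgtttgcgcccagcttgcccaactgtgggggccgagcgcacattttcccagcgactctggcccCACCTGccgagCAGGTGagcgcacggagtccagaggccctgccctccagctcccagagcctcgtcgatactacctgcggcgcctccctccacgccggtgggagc
JUP, outer start, chr17:41786662-41786961, minus strand: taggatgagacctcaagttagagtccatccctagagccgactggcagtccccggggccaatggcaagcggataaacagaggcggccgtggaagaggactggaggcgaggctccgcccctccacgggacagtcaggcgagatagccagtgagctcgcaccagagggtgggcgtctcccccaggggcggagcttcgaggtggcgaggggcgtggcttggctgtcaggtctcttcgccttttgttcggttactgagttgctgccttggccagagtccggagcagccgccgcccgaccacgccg
DSG2, chr18:31497927-31498226, plus strand: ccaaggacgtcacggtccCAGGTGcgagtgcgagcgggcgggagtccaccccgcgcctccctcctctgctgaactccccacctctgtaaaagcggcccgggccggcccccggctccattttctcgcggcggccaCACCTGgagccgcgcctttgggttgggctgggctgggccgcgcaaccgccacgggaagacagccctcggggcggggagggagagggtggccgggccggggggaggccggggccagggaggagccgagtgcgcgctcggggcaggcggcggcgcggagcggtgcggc

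The DSP promoter held 2 of these E-boxes, which begin at positions -178 and -85 from the start. The inner JUP promoter held 2 (positions -54 and -43), the outer JUP promoter none, and the DSG2 promoter 2 (positions -232 and -116). Of the 2 DSC2 promoters 1 held a single E-box (position -156), and neither of the 2 PKP4 promoters held any. Among 35116 RefSeq promoters of 300 bases, 20.6% held CACCTG on either strand. The E-box therefore occurred both in a gene that was far lower in shRNF20 and in a gene that did not pass. The DSP promoter also held 8 GC boxes (GGGCGG on either strand, present in 45.0% of promoters) and was 77.0% G or C, close to the 76.7% of DSG2. None of the 8 promoter sequences used held the AP-1 element TGANTCA (7.71% of promoters), the TATA box TATAAA (11.5%) or the grainyhead element AACNNGTT (3.52%). The CCAAT box (34.6% of promoters) was found 3 times in 1 PKP4 promoter and 1 time in the outer JUP promoter. No E-box overlapped another of these motifs, and a match describes letters, not binding.

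The other plakins were lower as well, by sizes that ran from large to moderate. PPL encodes periplakin, which binds keratins and vimentin and pairs with envoplakin (chromosome 16, 4882507 to 4960741). It stood at 4.39, 4.77 and 3.87 CPM in shRNF20 and at 16.5, 29.7 and 24.3 CPM in shControl. Here shControl replicate 1 was the lowest control, the reverse of DSP. The log2 fold change was -2.44 (SE 0.22), or 5.41-fold lower, and it stayed between -2.66 and -2.26 with any 1 library left out. EVPL, its partner envoplakin (chromosome 17, 76004502 to 76027452), stood at 44.1, 49.0 and 39.5 CPM in shRNF20 and at 61.7, 58.2 and 66.8 CPM in shControl. The groups were separate by a narrow gap, and the log2 fold change was -0.49 (SE 0.10). PLEC encodes plectin (chromosome 8, 143915147 to 143976734), a large linker that also reaches actin and microtubules. It was the most abundant gene of the family, at 1016, 1070 and 986 CPM in shRNF20 and at 1840, 1514 and 1726 CPM in shControl. All 3 shRNF20 libraries lay under all 3 controls, and the log2 fold change was -0.73 (SE 0.09), or 1.65-fold lower. EVPL did not pass with the shRNF20 libraries summed to 1 sample (-0.48), while PPL and PLEC passed under every alternative.

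JUP encodes plakoglobin, also called gamma-catenin, the armadillo protein that desmosomes share with adherens junctions (chromosome 17, 41754604 to 41786931). It stood at 63.3, 65.3 and 61.7 CPM in shRNF20 and at 157, 234 and 260 CPM in shControl. The shRNF20 values were nearly equal, and shControl replicate 1 was the lowest of its group. JUP averaged 63.5 ± 1.81 CPM in shRNF20 and 217 ± 53.7 CPM in shControl (SD, n = 3 each). The log2 fold change was -1.77 (SE 0.17), or 3.42-fold lower, and it ranged from -1.98 to -1.63 with any 1 library left out. It passed under every alternative.

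The plakophilins, armadillo proteins that cluster desmosomal components, went different ways and by small amounts. PKP3 (chromosome 11, 392614 to 404908), found in most desmosomes, stood at 29.01, 27.1 and 25.1 CPM in shRNF20 and at 34.9, 39.2 and 35.9 CPM in shControl. It was lower in every shRNF20 library (log2 fold change -0.44, SE 0.10), and this difference did not pass with the shRNF20 libraries summed to 1 sample (-0.42). PKP2 (chromosome 12, 32790745 to 32896840), the plakophilin of heart and simple epithelia, stood at 81.0, 83.7 and 83.7 CPM in shRNF20 and at 68.0, 68.7 and 76.4 CPM in shControl. The gap between the groups was narrow (log2 fold change 0.22, SE 0.07). PKP2 passed under 8 of 17 alternatives; it did not pass without shControl replicate 1 (0.17) or 2 (0.18), nor without shRNF20 replicate 1 (0.23), 2 (0.20) or 3 (0.20). PKP4 (chromosome 2, 158456964 to 158682879), also called p0071 and found in adherens junctions and desmosomes, stood at 112, 111 and 112 CPM in shRNF20 and at 133, 109 and 111 CPM in shControl. The groups overlapped, and the log2 fold change was -0.07 (SE 0.09). The antisense gene PKP4-AS1 shares 4.4% of the exon bases of PKP4, and it had 48, 27 and 39 reads in shRNF20 and 6, 4 and 0 in shControl. Without strand, reads on the shared bases cannot be assigned to either gene and were set aside. The counts of PKP4 held 88.5% to 90.1% of the reads in its summed strand columns.

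The desmosomal cadherins were not lower in shRNF20. DSG2 encodes desmoglein-2, the desmoglein of simple epithelia (chromosome 18, 31498043 to 31549008). It stood at 293, 283 and 299 CPM in shRNF20 and at 257, 250 and 307 CPM in shControl, where replicate 3 lay above all others and made the groups overlap. The log2 fold change was 0.11 (SE 0.09), and DSG2 passed under 1 of 17 alternatives, without shControl replicate 3 (0.20). The antisense gene DSG2-AS1 shares 2.8% of the exon bases of DSG2. The counts of DSG2 held 90.3% to 91.4% of the reads in its summed strand columns. DSC2 encodes desmocollin-2 (chromosome 18, 31058840 to 31102522). It stood at 50.7, 51.0 and 54.4 CPM in shRNF20 and at 27.6, 31.7 and 46.5 CPM in shControl. Every shRNF20 library lay above every control, although shControl replicate 3 came near them. The log2 fold change was 0.56 (SE 0.17), or 1.48-fold higher. DSC2 passed under 10 of 17 alternatives; it did not pass without shControl replicate 1 (0.39) or 2 (0.47), nor without shRNF20 replicate 1 (0.57), 2 (0.56) or 3 (0.52). The number of family members called higher was thus 0 without any 1 of these 5 libraries and 3 without shControl replicate 3, where DSC2 had a log2 fold change of 0.81. The names of the deposited tables number shControl replicate 3 apart from the other controls and closer to the shRNF20 libraries. No label says what that number stands for, and its part in these values was not tested.

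**Figure D2:**
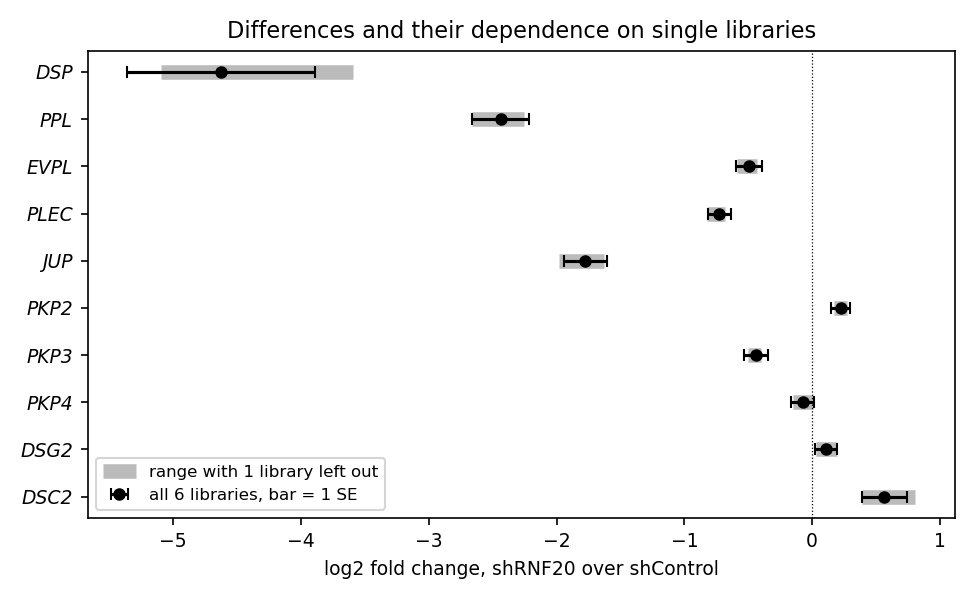
Log2 fold change of shRNF20 over shControl for each gene, with a bar of 1 SE, over a grey band that spans the values with 1 library left out in turn. The band of DSP runs from -5.10 to -3.59 and is the widest, while the bands of EVPL, PLEC and PKP3 stay below 0 and that of PKP4 reaches 0.

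Set on a scale of CPM per kilobase of exon, which allows for gene length, the order of the family changed. The length was that of all annotated exons merged, not that of the transcripts expressed, and the ranks depend on this choice. PLEC led in each group, at 60.3 ± 2.5 CPM per kilobase in shRNF20 and 99.7 ± 9.74 in shControl (SD, n = 3 each). In shRNF20 it was followed by DSG2 (47.2 CPM per kilobase) and at a distance by JUP (12.8), PKP2 (11.8), PKP4 (11.7), PKP3 (7.14), EVPL (5.89), DSC2 (4.16), PPL (0.565) and DSP (0.23). Only PKP2 and PKP4 overlapped as neighbours in that order. In shControl JUP (43.9 CPM per kilobase) and DSG2 (43.8) came next and overlapped, followed by PKP4 (12.3), PKP2 (10.1), PKP3 (9.69), EVPL (8.29), DSP (5.70), PPL (3.06) and DSC2 (2.82). There the neighbours PKP2 and PKP3, EVPL and DSP, DSP and PPL, and PPL and DSC2 also overlapped. Desmoplakin was therefore the least abundant message of the family in shRNF20 and by its mean ranked 8 of 10 in shControl. That rank differed between controls, where DSP stood at 11.6, 1.44 and 4.05 CPM per kilobase in replicates 1 to 3. In shControl replicate 2 it was also the least abundant, below DSC2 (2.53) and PPL (3.86).

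The levels of DSP and JUP set against that of DSG2 differed accordingly. The plakophilins of the plaque were not part of these ratios. Per kilobase PKP2 averaged 11.8 CPM in shRNF20 and 10.1 CPM in shControl. PKP4 averaged 11.7 and 12.3 CPM, and PKP3 7.14 and 9.69 CPM, in the same order. Per kilobase, DSP came to 0.00434, 0.00481 and 0.00547 of the DSG2 level in shRNF20 replicates 1 to 3 and to 0.279, 0.0356 and 0.0819 of it in shControl replicates 1 to 3. JUP came to 0.270, 0.289 and 0.258 of the DSG2 level in shRNF20 and to 0.765, 1.17 and 1.06 of it in shControl. Neither ratio overlapped between the groups. DSC2 came to 0.0856, 0.0892 and 0.0899 of the DSG2 level in shRNF20 and to 0.0531, 0.0627 and 0.0751 in shControl, again without overlap. Desmoglein-2 was therefore the main cadherin message throughout. DSP made up 0.31% to 0.413% of the summed per-kilobase level of the 4 plakins in shRNF20 and 1.41% to 8.91% in shControl. These are ratios of messages, each from the libraries described above, and they carry the same spread among the controls.

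The control libraries varied most in DSP. The SD of its log2-CPM was 0.18 over the shRNF20 libraries and 1.502 over the shControl libraries. Among the 4784 other genes within 1 log2 unit of its shControl level, 1 had a larger SD in shControl, whereas in shRNF20 1415 of 2395 genes of like level did. The next widest in shControl were PPL (0.15 in shRNF20, 0.43 in shControl), DSC2 (0.06 and 0.39) and JUP (0.04 and 0.38), which lay at the 92.2, 91.8 and 96 percentiles of shControl spread for their level. PKP2, PKP3 and EVPL lay below the middle for their level in shControl (28.2, 21.7 and 30.3 percentiles), and in shRNF20 EVPL was among the most variable (98 percentile). Over all genes tested the median SD was 0.086 in shRNF20 and 0.209 in shControl, so the controls were the wider group in general.

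The controls did not vary together across the family. DSP, PKP4 and PLEC were highest in shControl replicate 1 and lowest in replicate 2, an order held by 21% of all genes tested. JUP, PKP2 and DSC2 ran from replicate 3 down to replicate 1 (13.6% of genes), PKP3 and PPL were highest in replicate 2 and lowest in replicate 1 (19.2%), and DSG2 and EVPL were highest in replicate 3 and lowest in replicate 2 (15.3%). The control with the most DSP was thus the one with the least JUP, PPL and DSC2. Epithelial markers went both ways in that library. The cadherin CDH1 stood at 13.3 CPM there, below the 26.2 and 15.2 CPM of the other controls, and ELF3 and CLDN7 were also lowest there. EPCAM stood at 16.0 CPM there, above the 13.0 and 11.6 CPM of the other controls, and GATA3 and TP63 were also highest there. ESRP2, CLDN3, CLDN4 and ESR1 lay between the other controls. Whether a difference in culture or in library preparation moves with DSP was not tested.

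**Figure D3:**
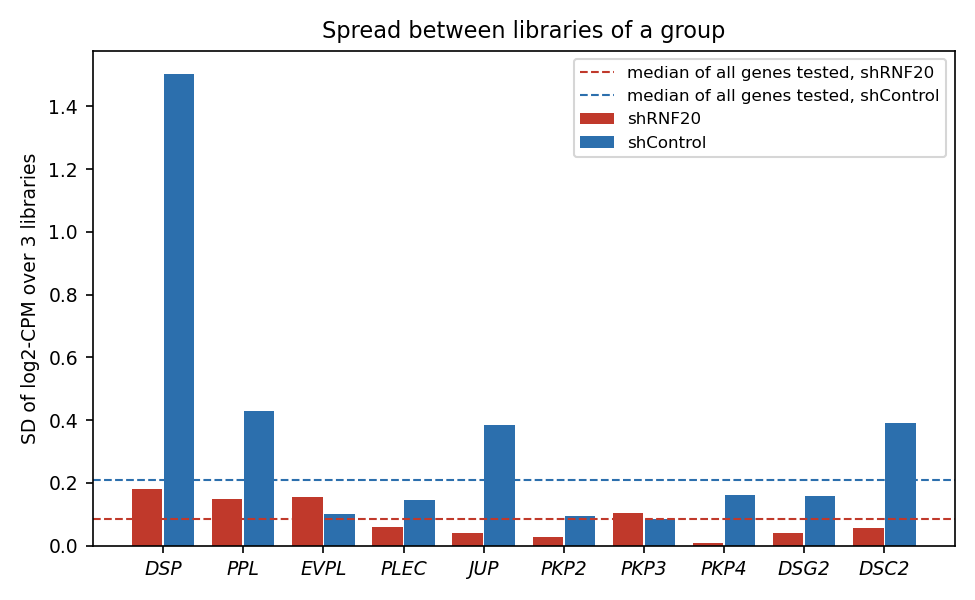
SD of log2-CPM over the 3 libraries of each group, shRNF20 in red and shControl in blue, with dashed lines at the medians of all genes tested (0.086 and 0.209). DSP in shControl stands at 1.502, and the other shControl bars are at 0.43 or less.

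Likeness to DSP was measured over 11778 other genes (mean log2-CPM no lower than 1). The profile over the 6 libraries most like that of DSP belonged to ADAMTS9, a secreted metalloprotease. It stood at 1.42, 1.14 and 1.62 CPM in shRNF20 and at 53.6, 6.0 and 24.7 CPM in shControl, and its centred log2 profile differed from that of DSP by a root mean square of 0.26. It shared the order of the controls with DSP, replicate 1 above 3 above 2. The next were the TNF family ligand TNFSF15 (0.69), the cytokine IL24 (0.73), the coronin CORO2B (0.77) and LRIG1, a negative regulator of EGF receptors (0.78). IL24 differed in order, with shControl replicate 3 lowest (3.27, 2.497 and 3.94 CPM in shRNF20, against 91.0, 53.0 and 36.7 CPM in shControl). Within the family the nearest to DSP on this measure was PPL, at 1.42.

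Genes around the desmosome were read from lists that hold none of the 10 genes. The lists were chosen with earlier results of these data known. The fit over all genes called 10 of their 53 tested genes higher and 27 lower, where 28.7% of all genes tested were higher and 29.8% lower. Skin-type desmosomal genes were almost silent: DSG1, DSG3, DSG4, DSC1, DSC3, PKP1 and CDSN had at most 3 reads in any library and were not tested. The 3 other desmosome-associated genes passed. PERP, a membrane protein of desmosomes and a p53 and p63 target, fell to 79.4 ± 1.32 CPM in shRNF20, against 143 ± 13.3 CPM in shControl (log2 fold change -0.85, SE 0.08, edgeR adjusted p = 7.28e-05). KAZN, whose product kazrin binds periplakin, fell to 23.5 ± 0.94 CPM in shRNF20, against 30.7 ± 3.32 CPM in shControl (-0.39, SE 0.11, edgeR adjusted p = 0.0131), a call lost without shRNF20 replicate 3 (-0.36) and with the summed strand columns (-0.25). PNN, which encodes pinin, a protein described at desmosomes and in nuclear splicing speckles, rose to 182 ± 16.4 CPM in shRNF20, against 93.2 ± 5.66 CPM in shControl (0.96, SE 0.09, edgeR adjusted p = 5.22e-05).

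The other plakins and the hemidesmosome, which fixes epithelial cells to the basement membrane, were lower in 8 of 10 genes tested and higher in 0, with a median log2 fold change of -1.28 against -0.01 over all genes, of which 29.8% were lower. The giant spectraplakin MACF1, which links actin to microtubules, fell to 122, 123 and 148 CPM in shRNF20, against 529, 462 and 504 CPM in shControl (-1.93, SE 0.10, edgeR adjusted p = 6.24e-06). The related DST, which includes the hemidesmosomal plakin BPAG1e, fell by 1.10 on the log2 scale (SE 0.13, edgeR adjusted p = 1.94e-04). LAMA3 and LAMB3, which encode laminin chains of the basement membrane, fell with log2 fold changes of -1.06 for LAMA3 and -2.62 for LAMB3 (edgeR adjusted p = 2.09e-05 and 2.81e-05). LAMB3 stood at 58.1, 59.1 and 64.1 CPM in shRNF20 and at 511, 286 and 320 CPM in shControl. The integrin pair of the hemidesmosome fell too, with log2 fold changes of -1.47 for ITGB4 and -0.86 for ITGA6 (edgeR adjusted p = 3.90e-05 and 3.42e-04). COL17A1, its transmembrane collagen, stood at 3.19, 2.41 and 3.30 CPM in shRNF20 and at 27.1, 6.55 and 8.90 CPM in shControl (-2.26, SE 0.50, edgeR adjusted p = 0.00485). As for DSP, shControl replicate 1 was far above the other controls, and without it the log2 fold change was -1.40. The COL17A1 call was lost with no filter on low counts (-2.30). EPPK1 (-0.93) and CD151 (0.12) did not pass, although EPPK1 did with DESeq2 (-0.93) and without shControl replicate 3 (-1.21).

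**Figure D4:**
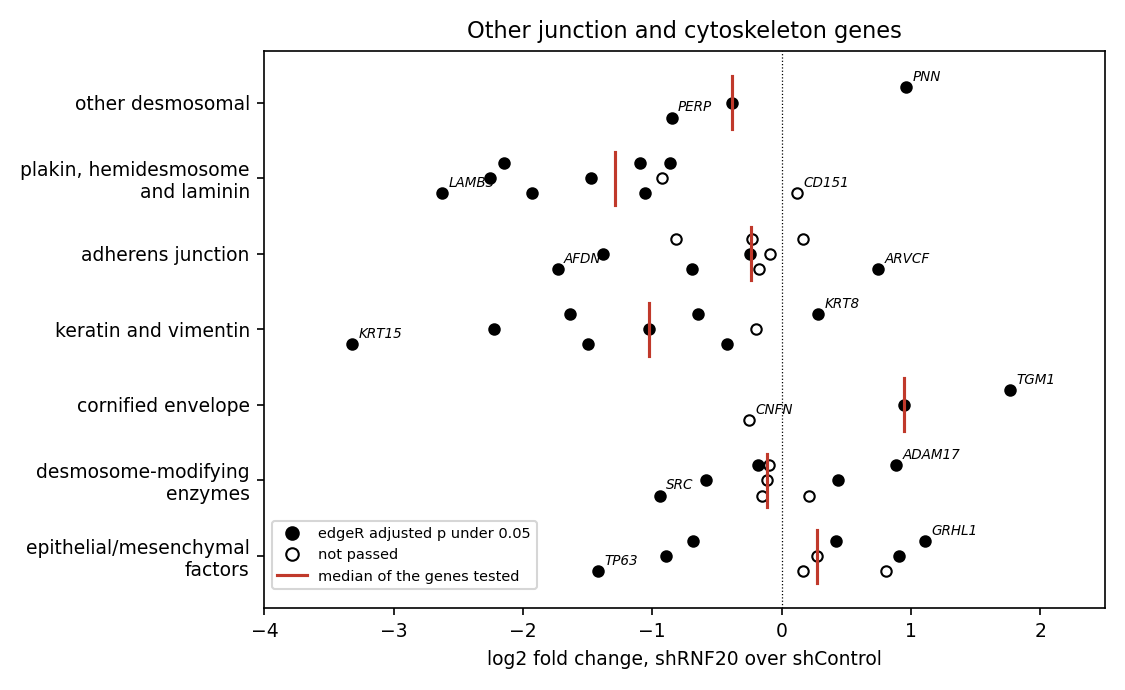
Log2 fold change of shRNF20 over shControl for the genes tested in each list, 1 point per gene, filled where the edgeR adjusted p was under 0.05 and open where not, with a red line at the median of the list. The plakin, hemidesmosome and laminin list has its median at -1.28 and the keratin and vimentin list at -1.03.

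In adherens junctions, the actin-linked relatives of desmosomes, 4 of 10 genes fell and 1 rose (median -0.24); over all genes 29.8% were lower and 28.7% higher, and the share of lower calls was near that. The actin linker AFDN fell to 36.6 ± 2.64 CPM in shRNF20, against 121 ± 18.6 CPM in shControl (-1.73, SE 0.12, edgeR adjusted p = 1.73e-05). E-cadherin (CDH1), low in this line, fell to 6.99 ± 0.60 CPM in shRNF20, against 18.2 ± 6.97 CPM in shControl (-1.38, SE 0.25, edgeR adjusted p = 0.00161). The counts of CDH1 held 79.5% to 87.2% of the reads in its summed strand columns. CDH11 (-0.69, edgeR adjusted p = 0.0121) and CTNNA1, alpha-catenin (-0.25, edgeR adjusted p = 0.0149) fell by smaller amounts, and ARVCF, a catenin of the p120 family, rose (0.75, edgeR adjusted p = 0.0111). CDH11 moved to -0.44 without shControl replicate 3 and lost its call without shRNF20 replicate 3 (-0.65). The call of CTNNA1 was lost without any 1 of the shRNF20 libraries (-0.27 to -0.25) and that of ARVCF without shRNF20 replicate 2 (0.64). Without shRNF20 replicate 3 the list had 2 genes lower; it had 0 genes higher without shRNF20 replicate 2 and 2 without shControl replicate 3. CTNNB1, beta-catenin and the closest relative of plakoglobin, did not pass (575 ± 5.68 CPM in shRNF20 and 512 ± 29.2 CPM in shControl, log2 fold change 0.17, SE 0.07, edgeR adjusted p = 0.0610), but passed without shControl replicate 3 (0.21) and with upper quartile scaling (0.20).

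Of the intermediate filament genes that desmosomes and plakins anchor, 7 of 9 tested fell and 1 rose (median -1.03). Over all genes tested 29.8% were lower and 28.7% higher. KRT5, KRT6A, KRT6B, KRT14 and KRT16 had at most 8 reads in any library. KRT19 fell to 141 ± 3.12 CPM in shRNF20, against 437 ± 103 CPM in shControl (-1.63, SE 0.15, edgeR adjusted p = 5.99e-05). KRT80 fell by 1.03 and KRT15, at low level, by 3.32 on the log2 scale (edgeR adjusted p = 3.36e-04 and 7.20e-05). KRT8, a keratin of simple epithelia, rose to 748 ± 10.5 CPM in shRNF20, against 613 ± 40.01 CPM in shControl (0.29, SE 0.07, edgeR adjusted p = 0.00823), a call lost without shRNF20 replicate 2 (0.26). Its partner KRT18 did not pass (-0.20), but passed as lower without shControl replicate 2 (-0.29), with summed strand columns (-0.21) and with no filter (-0.24). The counts of KRT18, which shares exons with KRT8, held 51.4% to 55.6% of the reads in its summed strand columns, and those of KRT8 held 76.2% to 83.8%. VIM fell by 0.42 on the log2 scale (edgeR adjusted p = 0.00123), but its counts held only 21.7% to 24.1% of the reads in its summed strand columns, and antisense genes share 24.4% of its exon bases, so this level leaves most of those reads out.

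Cornified envelope genes, the setting in which periplakin and envoplakin are best known, were mostly silent: 11 of 14 had at most 11 reads in any library. TGM1, the transglutaminase that cross-links the envelope, rose to 10.1 ± 1.31 CPM in shRNF20, against 2.96 ± 0.70 CPM in shControl (1.77, SE 0.21, edgeR adjusted p = 1.66e-04). FLG, filaggrin, stood at 78.2, 83.9 and 97.7 CPM in shRNF20 and at 67.9, 23.9 and 42.9 CPM in shControl (0.95, SE 0.31, edgeR adjusted p = 0.0262). That call was lost without shControl replicate 3 (0.91), shRNF20 replicate 2 (0.96) or shRNF20 replicate 3 (0.84), and with no filter on low counts (0.90). The value moved to 0.62 without shControl replicate 2. An antisense gene shares 5.5% of the exon bases of FLG, and without strand, reads on those bases were set aside. The counts of FLG held 81.2% to 86.4% of the reads in its summed strand columns. CNFN did not pass (-0.25).

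Among enzymes that modify or shed desmosomal proteins, 3 of 9 fell and 2 rose (median -0.11), close to the 29.8% lower and 28.7% higher of all genes. PRKCA, protein kinase C alpha, known to loosen desmosomes, fell to 106 ± 1.54 CPM in shRNF20, against 159 ± 4.21 CPM in shControl (-0.58, SE 0.06, edgeR adjusted p = 1.15e-04). SRC fell by 0.94 (edgeR adjusted p = 1.69e-04) and EGFR by 0.18 on the log2 scale (edgeR adjusted p = 0.0421); the EGFR call was lost without any 1 of the shRNF20 libraries (-0.23 to -0.16) and with upper quartile scaling (-0.14). ADAM17, a sheddase that can cleave desmoglein-2, rose to 108 ± 2.78 CPM in shRNF20, against 58.5 ± 3.05 CPM in shControl (0.89, SE 0.07, edgeR adjusted p = 3.10e-05), and ADAM10 rose by 0.44 (edgeR adjusted p = 0.0109). The counts of ADAM17 held 67% to 70.1% of the reads in its summed strand columns, and genes on the opposite strand share 13.6% of its exon bases.

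Transcription factors of the epithelial or mesenchymal state went both ways, with 3 of 9 higher and 3 lower (median 0.27), close to the 28.7% higher and 29.8% lower of all genes. ZEB1, a repressor that binds the E-box marked in the promoters above, fell to 55.3 ± 2.71 CPM in shRNF20, against 89.0 ± 6.56 CPM in shControl (-0.69, SE 0.08, edgeR adjusted p = 1.89e-04), and ZEB2 did not pass (0.27) but passed as higher without shControl replicate 2 (0.35). SNAI1, another such repressor, was low and rose to 3.02 ± 0.51 CPM in shRNF20, against 1.62 ± 0.55 CPM in shControl (0.90, SE 0.29, edgeR adjusted p = 0.0266), a call lost without shControl replicate 1 (0.67) or 3 (0.87) and without shRNF20 replicate 1 (0.92) or 3 (0.75). KLF4 fell by 0.90 (edgeR adjusted p = 7.56e-04), while KLF5 rose by 0.42 and GRHL1, a grainyhead factor that activates desmosomal genes, by 1.11 on the log2 scale (edgeR adjusted p = 0.00142 and 0.00123). The counts of GRHL1 held 72.4% to 90.1% and those of KLF4 77.9% to 80.6% of the reads in their summed strand columns. TP63 stood under 1.5 CPM throughout (-1.42, edgeR adjusted p = 0.0350), and its call was lost without shControl replicate 1 (-0.92) and without shRNF20 replicate 1 (-1.14) or 2 (-1.39). GRHL2, OVOL1, OVOL2 and TWIST1 had at most 4 reads in any library.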

How the data were processed

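The authors deposited raw read counts per gene for each library, made with STAR 2.7.11a on hg38 after a FastQC 0.12.1 check, per the submitters' processing notes; the sources used here name no annotation release. The counts without strand were used, since the strand columns were near equal (50.1% to 50.2% in 1 of them). Lines that name no gene held 24.0% to 24.1% of reads in shRNF20 and 20.9% to 22.7% in shControl and were left out. A read that touches exons of several genes is set aside as ambiguous, which lowers the counts of overlapping genes. Symbols matched 62686 of 62703 IDs; positions and exon lengths came from GENCODE 29 (GRCh38).

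Low genes were removed with filterByExpr (minimum count 10). TMM scaling was followed by the quasi-likelihood test of edgeR 4.0.16 in R 4.3.3 (glmQLFTest, robust, Benjamini-Hochberg, threshold 0.05); log2-CPM used a prior count of 2. SEs are the log2 fold change divided by the root of F. Within groups, libraries differed beyond counting noise (chi-square per degree of freedom 2.06 to 6.80 in shRNF20, 31.9 to 51.5 in shControl), so none was taken for a repeat deposit of another; this does not show separate cultures. Other settings tried were DESeq2 1.42.0, limma-voom (limma 3.58.1), scaling by RLE or by the upper quartile, no filter, a filter at 1 CPM in 3 libraries, a block for the replicate number, summed strand columns, a test against 1.2-fold, summed shRNF20 libraries, mitochondrial genes left out, and each library left out.

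The members and lists were chosen with earlier results of these data known. Named genes are all members; from each list the 3 with the smallest p and all that moved 1 way where 5 or fewer did; the 5 genes most like DSP; and RNF20. Further list genes were named after their values were seen, and some list genes are not reported here by name.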

Additional observations from a re-analysis of the deposited data

How the results depend on the processing

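The 6 family members called lower stayed 6 in number under 16 of 17 alternatives. With the shRNF20 libraries summed to 1 sample 3 members were lower and 0 higher, over all genes 1753 were higher and 1619 lower, and in the related lists 3 were higher and 16 lower; that construction leaves a single shRNF20 sample. The 2 members called higher became 1 with no filter on low counts, 1 with the replicate block (PKP2 lost) and 0 in the test against 1.2-fold. With 1 library left out, 0 to 3 members were higher and 6 lower. Among 5 genes that did not pass with all libraries, the log2 fold change turned sign with 1 library left out: it ranged from -0.15 to 0.003 for PKP4 and from -1.18 to 0.061 for CDH2 (above 0 without shControl replicate 1), and from -0.534 to 0.301 for CDH3, from -0.61 to 0.015 for CNFN and from -0.169 to 0.70 for SNAI2 (sign turned without shControl replicate 2). SNAI2 passed without shControl replicate 1 (0.70). Same-numbered libraries of the groups did not deviate together (correlations -0.016, 0.035 and 0.028). The shRNF20 libraries scatter little, so this check cannot settle whether the samples were paired, and the labels give replicate numbers only. The block for the replicate number gave 4418 genes higher and 4518 lower, against 4528 and 4704 without it. Other scalings moved the median of all genes by under 0.1 on the log2 scale (it was 0.02 with upper quartile scaling and -0.01 without), and leaving out mitochondrial genes gave a family median of -0.48. The spread of DSP among the controls hardly moved with RLE scaling (SD 1.498). The few reads of DSP and PPL in shRNF20 (49 to 114) limit the precision of those levels.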
